A study of Homo sapiens with 6 samples.

Results

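The genes described here are the MAGE, XAGE, GAGE, PAGE, SSX, CTAG and PRAME genes, most of which are known as cancer-testis genes. Members were chosen by gene symbol, with earlier results of these data known, and 39 of the 17170 genes in the deposited table carry such a symbol. They comprise 16 type I MAGE genes (the MAGE-A, MAGE-B and MAGE-C subfamilies), 8 type II MAGE genes (MAGE-D, -E, -F, -H and -L), 3 XAGE, 4 GAGE, 1 PAGE, 2 SSX and 3 CTAG genes, PRAME, and SSX2IP. Not all of them are cancer-testis genes. The type II MAGE genes are active in many normal tissues, and SSX2IP, named for its binding to SSX2, encodes a widely expressed protein of centrosomes and cell junctions, so 30 of the 39 count as cancer-testis genes below. RefSeq (GRCh38.p14) holds 71 protein-coding genes whose symbols fit the same pattern. Of these, 38 have a row in the table, and the remaining member, MAGEA10-MAGEA5, is a readthrough gene that joins 2 neighbours. The other RefSeq genes are not analysed here.

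Cancer-testis genes are normally transcribed in male germ cells and, for some, in placenta, and are silent in most other adult tissues. Many form recently duplicated families on the X chromosome, their promoters are methylated in normal somatic cells, and loss of that methylation is a known route to their reactivation in tumours. Fragments of their proteins can be presented to T cells, which is why several were first found as tumour antigens. MAGE proteins share a conserved domain through which they bind RING-type ubiquitin ligases and steer them to substrates.

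The labels name the cells as NCI-H69, an established human small cell lung cancer line. Per the labels, control cells carried a non-targeting sgRNA delivered with the CRISPR/Cas9 system and were profiled as 3 biological replicates by strand-specific sequencing of poly(A) RNA. A further 3 samples carried a stable SCRMP knockout directed at the MIR7-3HG open reading frame. The labels do not say whether either population was a single clone or a pool. The column names that the labels give for the knockout samples were not found in the table, so the knockout comparison was not made and every value below is a level in the control libraries, as mean ± SD with n = 3 unless single libraries are given. With 1 group there is no test between groups, and the SD measures the spread among these 3 libraries, which may be technical.

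Library totals were 20941185 to 22477571 estimated reads. Levels are in TPM, a unit scaled to the sum of each library, and are corrected for transcript length and can be compared between genes. Detection required 1 TPM or more in every one of the 3 libraries. These are bulk samples, in which fewer cells expressing a gene and less RNA per cell cannot be told apart. The labelled cell type was checked against 6 neuroendocrine markers, of which 1 was detected: the adhesion molecule gene NCAM1, with 25.7 TPM ± 3.66. SYP, INSM1, NEUROD1, DLL3 and CHGA lay between 0.080 and 0.717 TPM. These defining markers of the labelled cell type were therefore near 0 in the libraries whose cancer-testis genes are described here. The name of the line rests on the labels, and the identity of the cells was not tested.

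The members fell into a high set and a near-silent set with no gene between them. Of 39 members, 23 were detected (59.0%), against 66.5% of all genes in the table and 62.4% of 612 other X-linked genes. The lowest detected member, MAGEH1, had 9.12 TPM ± 0.661, and the highest undetected member, MAGEA10-MAGEA5, had 0.470 TPM ± 0.308. Among the cancer-testis members 16 of 30 were detected, whose middle level was 124.7 TPM, while the 6 detected type II MAGE genes had a median of 20.7 TPM. The median over all detected genes was 18.2 TPM. A mean of 100 TPM or more was reached by 10 of 39 members (25.6%), against 8.25% of all genes and 6.54% of the other X-linked genes. The share of detected members was thus close to the background, whereas the share above 100 TPM was above it. These shares are descriptions, since the members form families, share sequence and were chosen with earlier results of these data known. All members together summed to 2673 TPM ± 56.2, or 0.267% of the total.

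**Figure D1:**
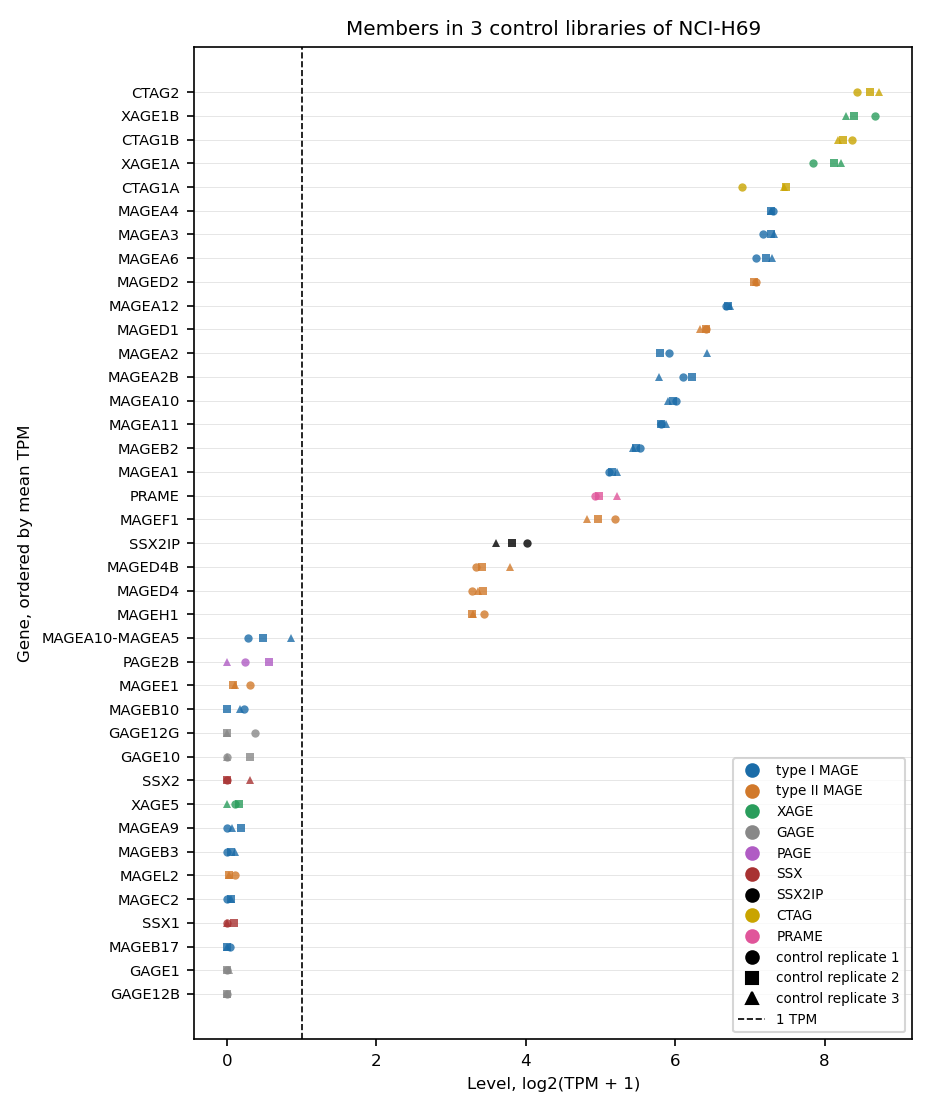
Level of each of the 39 members on the log2(TPM + 1) scale, 1 symbol shape for each of the 3 control libraries, coloured by kind and ordered by mean TPM; the dashed line marks 1 TPM. The 23 detected genes lie at 8.66 TPM or more in every library and the other 16 at 0.810 TPM or less in every library.

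Most measured genes of the MAGE-A subfamily, which encode adaptors of ubiquitin ligases, were detected. Of 11 members 9 were detected, against 66.5% of all genes and 62.4% of the other X-linked genes. The summed level of the 11 was 816.2, 840.3 and 867.8 TPM in control replicates 1, 2 and 3. MAGEA4, a target of engineered T cell therapy, had 156.8, 154.04 and 154.1 TPM. The libraries differed little, with an SD of 1.57 TPM or 1.01% of the mean, below the 1.74% that counting error alone gives at its read number. MAGEA3, whose product works with the ligase TRIM28, had 144.1, 154.5 and 159.5 TPM. Its close relative MAGEA6 had 133.9, 147.4 and 155.9 TPM. MAGEA3 was above MAGEA6 in each of the 3 libraries, whereas MAGEA4 was above both in control replicate 1 and below both in control replicate 3, so its place among them is not resolved.

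The other detected MAGE-A genes formed a descending series. MAGEA12 had 103.6 TPM ± 2.30, below the range of the leading 3. MAGEA2 and MAGEA2B, a pair of copies described further below, had 66.3 TPM ± 16.1 and 65.3 TPM ± 10.2. MAGEA10 had 61.4 TPM ± 2.34 and MAGEA11, whose product is a coactivator of the androgen receptor, had 56.05 TPM ± 1.42. The ranges of MAGEA2, MAGEA2B and MAGEA10 overlapped, and those of MAGEA2, MAGEA2B and MAGEA11 did as well. MAGEA1, the founding member that was identified as a T cell target in melanoma, was the lowest detected one at 33.7, 34.7 and 36.2 TPM.

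Detection was narrower in the remaining type I genes. MAGEB2, linked to the control of stress granules, was the single detected gene of 4 MAGE-B members and had 45.3, 43.3 and 42.1 TPM. MAGEB3, MAGEB10 and MAGEB17 had at most 3.95 estimated reads in any library. MAGEC2, another partner of TRIM28, had 0, 0.040 and 0.040 TPM, which is at most 1 read per library. MAGEA9 had 0, 0.140 and 0.050 TPM. The readthrough gene MAGEA10-MAGEA5 was given 4.46, 9.07 and 19.5 reads and overlaps MAGEA10, with which its reads can be exchanged.

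The 3 CTAG genes together were about as abundant as the 11 MAGE-A genes. They encode NY-ESO-1 (CTAG1A and CTAG1B) and the related antigen LAGE-1 (CTAG2), which are among the most studied targets of tumour immunotherapy. CTAG2 had 343.8, 390.1 and 424.3 TPM, the highest mean of any single member and rank 309 among all genes. XAGE1B was above it in control replicate 1. The sum of XAGE1A and XAGE1B, and that of CTAG1A and CTAG1B, were above CTAG2 in every library. CTAG2 lies on the X chromosome at 154651977 to 154653579, and CTAG1B lies at 154617609 to 154619282 and CTAG1A at 154585133 to 154586816 (RefSeq genes, GRCh38.p14). CTAG1B had 327.4, 301.1 and 287.5 TPM, and CTAG1A had 118.05, 178.1 and 174.3 TPM. The summed level of the 3 genes was 789.2, 869.3 and 886.1 TPM, which overlaps the MAGE-A sum, and CTAG2 varied by 10.5% against 1.58% from counting error.

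XAGE1, described as an antigen in lung cancer, was at a similar height. The copies lie on the X chromosome, XAGE1B at 52512077 to 52517068 and XAGE1A at 52495808 to 52500812. XAGE1B had 405.8, 334.1 and 310.3 TPM and XAGE1A had 228, 278.3 and 295.8 TPM. The libraries high in one copy were low in the other. XAGE5, the remaining XAGE member, had 0.080, 0.120 and 0 TPM. PRAME, a substrate receptor of a CUL2 ubiquitin ligase and a repressor of retinoic acid receptor signalling, is on chromosome 22, at 22547701 to 22559265, and is one of 4 members outside the X chromosome, which holds 35. It had 29.5, 30.5 and 36.2 TPM, lower than every detected type I MAGE gene in mean level, although its highest library overlapped MAGEA1.

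GAGE, PAGE and SSX genes were near 0. The 4 GAGE members together had 0.290, 0.240 and 0.020 TPM, from at most 1.34 reads in a library. GAGE12B was listed at 0 in all 3 libraries, and a count of 0 still allows up to 3 reads among the 20941185 of control replicate 1. PAGE2B had 0.180, 0.480 and 0 TPM. SSX1 and SSX2, transcriptional corepressors known from the fusion genes of synovial sarcoma, had at most 3.96 reads in a library. SSX2IP was detected at 15.2, 13.06 and 11.2 TPM.

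Type II MAGE genes ranged from abundant to silent. MAGED2, required for salt transport in the fetal kidney, had 133.9, 132.2 and 134.8 TPM. MAGED1, an adaptor of the neurotrophin receptor p75, had 84.1, 84.5 and 79.2 TPM. MAGEF1, which directs the ligase NSMCE1 to the iron-sulfur assembly factor MMS19, had 35.6, 30.1 and 27.1 TPM. MAGED4, MAGED4B and MAGEH1 were lower, between 8.66 and 12.8 TPM in every library. MAGEE1 and MAGEL2 were not detected. MAGEL2, an imprinted gene of the Prader-Willi region, had 0.080, 0.020 and 0.020 TPM. Its imprinted neighbour NDN, a type II gene outside the symbol pattern, had 0.310 TPM ± 0.173. The other type II genes outside the pattern, NSMCE3 and TRO, had 17.9 TPM ± 0.286 and 7.49 TPM ± 1.03.

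Several members are near-identical copies, and this bears on their levels above. Among complete coding sequences of GENCODE release 29, those of MAGEA2 and MAGEA2B, of CTAG1A and CTAG1B, of XAGE1A and XAGE1B and of MAGED4 and MAGED4B had 100% identity. MAGEA3 and MAGEA6 differed at 18 of 945 bases, with 308 bases as the longest run without a difference. The 120-base stretch with the most differences, 6 of the 18, is shown because it best tells this last pair apart. Capitals mark the 6 differing bases (coding bases 804 to 923, 5′ to 3′).
MAGEA3: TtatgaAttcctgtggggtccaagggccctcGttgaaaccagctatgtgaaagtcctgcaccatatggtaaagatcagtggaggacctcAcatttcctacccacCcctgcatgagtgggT
MAGEA6: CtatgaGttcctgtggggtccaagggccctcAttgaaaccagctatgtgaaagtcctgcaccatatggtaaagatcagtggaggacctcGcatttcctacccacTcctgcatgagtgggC

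The share of sequence that cannot place a read was counted over all 100-base stretches of each gene's protein-coding transcripts. None of the stretches of MAGEA4, MAGEA11, MAGEB2, MAGEA1, PRAME, MAGED1, MAGED2, MAGEF1, MAGEH1 and SSX2IP recurred in another gene, so the levels of these 10 are the firmest by this measure. MAGEA3 and MAGEA6 shared 34.9% and 33.04%, and CTAG2 shared 24.5%. CTAG1A, CTAG1B, XAGE1A, XAGE1B, MAGEA2, MAGEA2B, MAGED4 and MAGED4B shared 84.9 to 100%. Stretches of 100 bases stand for the read length, which no label used here states. Some near-silent members are copies too: SSX2 shared 100%, GAGE12G 100% and MAGEA9 89.7% of their stretches with other genes.

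**Figure D2:**
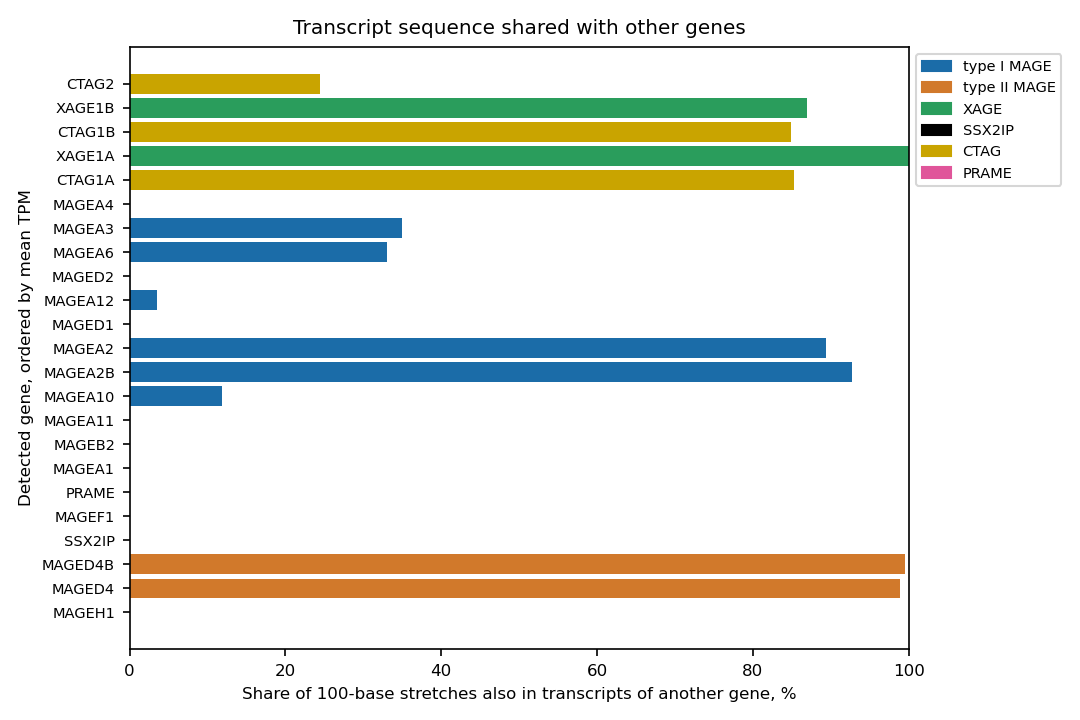
Share of distinct 100-base stretches of each detected gene's protein-coding transcripts that also occur in transcripts of another gene, in percent, with genes ordered by mean TPM and coloured by kind. Genes without a bar share none; 8 genes share over 80%, from 84.9% for CTAG1B to 100% for XAGE1A.

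In 3 of 5 pairs the summed level varied less between libraries than either copy did. The sum of XAGE1A and XAGE1B was 633.8, 612.4 and 606.1 TPM, a coefficient of variation of 2.35%, against 13.2% for XAGE1A and 14.2% for XAGE1B. XAGE1A took 36.0, 45.4 and 48.8% of that sum in control replicates 1, 2 and 3. The sum of MAGEA2 and MAGEA2B was 127.4, 128.7 and 138.7 TPM and varied by 4.72%, against 24.3% and 15.7% for the copies. The sum of CTAG1A and CTAG1B was 445.4, 479.1 and 461.8 TPM and varied by 3.65%, against 21.4% and 6.64%. For these families the sum is the better supported level. MAGED4 and MAGED4B summed to 19.7 TPM ± 2.15, and their sum varied by 10.9%, more than MAGED4 alone. MAGEA3 held a steady 51.2% ± 0.620 of its sum with MAGEA6. Over detected genes, the median coefficient of variation was 14.9% for the 8 that shared over 80% of their stretches and 3.65% for the 10 that shared none. The ranges overlapped, at 5.53 to 24.3% for the 8 and 0.973 to 15.3% for the 10. The 5 genes that shared some stretches, but under 50%, had a median of 5.17%. The 8 are pairs of copies, so their values are not independent. All genes of at least 10 TPM had a median of 6.11%.

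**Figure D3:**
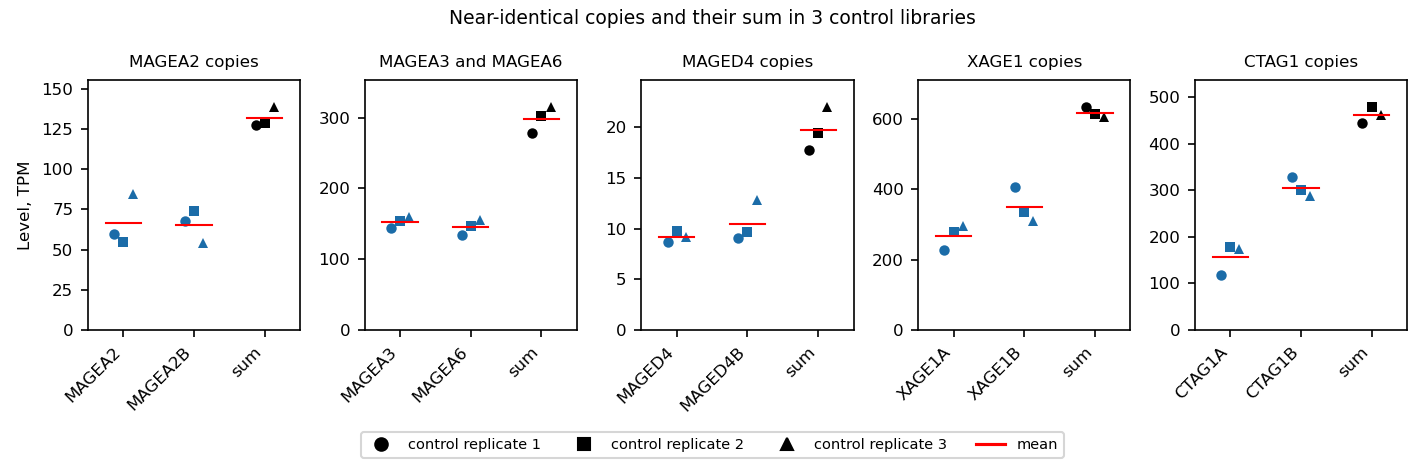
Level in TPM of 5 pairs of near-identical copies and of their sum, with 1 symbol shape for each of the 3 control libraries and a red line at the mean; each panel has its own axis from 0. In the MAGEA2 and XAGE1 panels, libraries with more of one copy have less of the other, and the sums vary by 4.72 and 2.35%.

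The MAGE-A genes from MAGEA4 to MAGEA1 lie in 1271 kb of the X chromosome, from 151912474 to 153183880 (GRCh38.p14), together with other measured genes. Of 9 members in this stretch, 8 were detected, each at 34.9 TPM or more in mean level. Over the whole table, 66.5% of all genes and 62.4% of the other X-linked genes were detected. Of 11 other genes in the stretch, 7 were detected. The highest was CSAG1, itself a cancer-testis gene, with 167.3 TPM ± 3.85, which lies 35 bp from MAGEA12. CSAG3, 36 bp from MAGEA2, had 87.3 TPM ± 8.83, and CSAG2 had 0.153 TPM ± 0.266. CSAG2 and CSAG3 shared 86.3% and 85.5% of their 100-base stretches with other genes, so the split between them is uncertain.

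Genes of other functions in the same stretch did not follow one level. The GABA receptor subunit genes GABRE and GABRQ had 0.847 TPM ± 0.207 and 0.310 TPM ± 0.123, and GABRA3, of the same family, had 8.29 TPM ± 0.703. NSDHL, an enzyme gene of cholesterol synthesis, had 45.2 TPM ± 2.46, and CETN2, a centrin gene, had 21.9 TPM ± 2.00. PNMA3 was listed at 0. Neighbours of high members elsewhere were of mixed level. The nearest measured genes outside the set were IL1RAPL1 (0.00667 TPM ± 0.0115) and NR0B1 (0.117 TPM ± 0.0681) for MAGEB2, and ZNF280A (0.523 TPM ± 0.138) and GGTLC2 (0.423 TPM ± 0.477) for PRAME. The CTAG genes lie between IKBKG, which had 16.4 TPM ± 0.707 and is 20086 bp from CTAG1A, and GAB3, which had 0.550 TPM ± 0.0100 and is 21669 bp from CTAG2. MAGEA11 lies between TMEM185A (6.75 TPM ± 0.386) and HSFX1 (0.320 TPM ± 0.139).

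**Figure D4:**
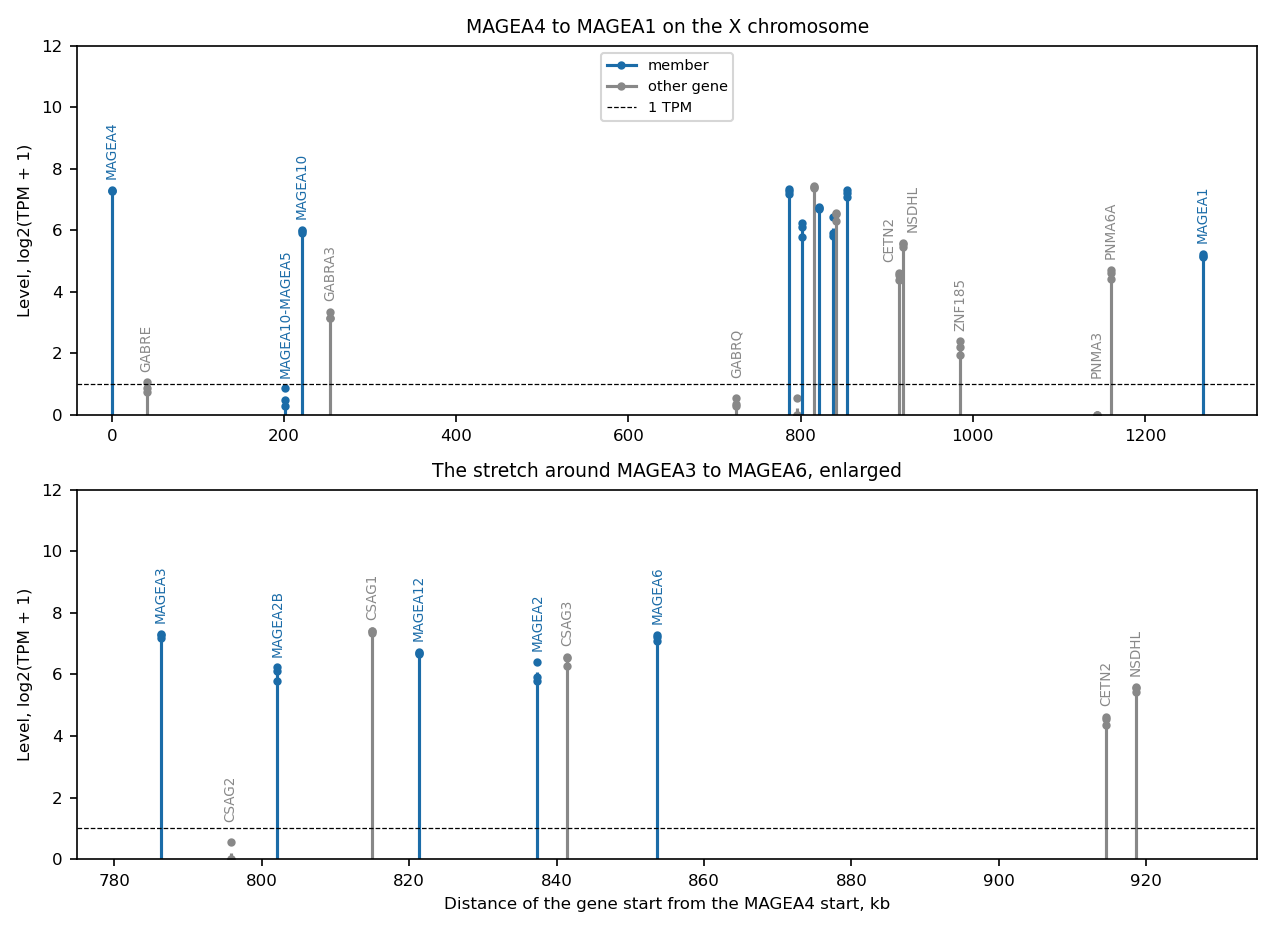
Levels on the log2(TPM + 1) scale of 20 measured genes by the distance of their start from that of MAGEA4 in kb; lines reach the mean, dots are the 3 control libraries, members are blue and other genes grey, and the lower panel enlarges the densest stretch. Other genes range from PNMA3, listed at 0, through GABRE and GABRQ below 1 TPM to NSDHL at 45.2 TPM and CSAG1 at 167.3 TPM.

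Promoters of the members were compared because their CpG content is where methylation acts on these genes. RefSeq promoter windows of 300 bases, from 250 before to 50 after an annotated start, were found for 31 members by gene number. CTAG1A, CTAG1B, CTAG2, MAGEA1, MAGEA10, MAGEH1, MAGEB17 and MAGEA10-MAGEA5 had none. For genes with several starts the one with the most CpG was taken. The windows below were chosen to show a high MAGE-A gene, the XAGE1 copy with the higher level, the autosomal PRAME, and 2 near-silent genes, with every CpG in capitals, 5′ to 3′ on the gene's strand.
MAGEA3 (chrX:152698544-152698843, plus strand): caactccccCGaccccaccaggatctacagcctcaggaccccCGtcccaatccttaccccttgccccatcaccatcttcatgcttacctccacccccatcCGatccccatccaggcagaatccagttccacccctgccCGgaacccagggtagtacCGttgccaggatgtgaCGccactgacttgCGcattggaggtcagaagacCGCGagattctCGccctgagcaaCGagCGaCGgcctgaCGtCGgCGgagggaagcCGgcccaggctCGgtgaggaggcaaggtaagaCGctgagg
XAGE1B (chrX:52516963-52517262, minus strand): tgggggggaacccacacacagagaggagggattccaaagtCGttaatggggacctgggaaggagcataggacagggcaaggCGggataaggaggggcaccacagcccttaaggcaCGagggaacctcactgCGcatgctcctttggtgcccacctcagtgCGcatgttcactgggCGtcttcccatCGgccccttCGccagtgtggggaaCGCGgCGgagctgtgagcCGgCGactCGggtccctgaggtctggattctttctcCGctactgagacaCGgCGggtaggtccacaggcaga
PRAME (chr22:22559216-22559515, minus strand): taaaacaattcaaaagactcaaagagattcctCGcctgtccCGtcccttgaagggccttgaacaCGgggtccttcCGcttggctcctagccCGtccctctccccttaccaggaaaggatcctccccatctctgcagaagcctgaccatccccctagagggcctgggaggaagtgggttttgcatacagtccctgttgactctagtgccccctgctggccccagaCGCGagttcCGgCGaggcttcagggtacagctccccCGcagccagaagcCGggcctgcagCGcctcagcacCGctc
MAGEC2 (chrX:142205241-142205540, minus strand): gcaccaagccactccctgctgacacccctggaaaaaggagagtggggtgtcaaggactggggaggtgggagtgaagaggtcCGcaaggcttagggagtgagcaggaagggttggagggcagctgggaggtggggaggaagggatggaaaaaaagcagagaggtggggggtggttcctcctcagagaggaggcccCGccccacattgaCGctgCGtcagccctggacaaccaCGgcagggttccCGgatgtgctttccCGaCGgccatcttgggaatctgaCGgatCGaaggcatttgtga
SSX2 (chrX:52707129-52707428, minus strand): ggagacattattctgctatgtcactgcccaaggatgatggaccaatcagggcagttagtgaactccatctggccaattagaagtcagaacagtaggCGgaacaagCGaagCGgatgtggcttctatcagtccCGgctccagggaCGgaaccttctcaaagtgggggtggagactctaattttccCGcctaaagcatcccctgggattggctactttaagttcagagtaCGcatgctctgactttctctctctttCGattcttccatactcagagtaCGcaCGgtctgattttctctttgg

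Detected cancer-testis members had a higher median CpG count in these windows than undetected ones, while the overlap of the ranges depended on the start taken. The 11 detected genes with a window had 13 to 21 CpG, with a median of 17, and the 12 undetected genes had 3 to 14, with a median of 10.5. With the start of fewest CpG the detected genes had 4 to 21, with a median of 15, and the undetected genes again 3 to 14, so that the ranges overlapped almost throughout. MAGEA3 had 19, XAGE1B 17 and PRAME 13, against 10 in MAGEC2 and 10 in SSX2. With the most CpG the ranges met at 13 and 14, where PRAME was detected and GAGE1, GAGE12G and MAGEB10 were not. The same direction held over all genes with a window, with a median of 29 CpG in 9462 detected and 13 in 4246 undetected genes. The median of the detected members lay below that of all detected genes with either choice of start, at 15 against 24 with the fewest CpG. The median of the undetected members was below that of all undetected genes with the most CpG but above it with the fewest, at 10.5 against 8. The counts are not independent of each other, as copies share promoters: the windows of MAGEA3 and MAGEA6 were identical over all 300 bases. Methylation itself was not measured.

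Windows were also searched for CCGGAA and its reverse complement TTCCGG, the core bound by ETS factors, a search that overlaps the CpG count because the motif holds a CpG. Of all RefSeq windows of this length, 17.2% had it. In the table it was present at some start of 36.5% of detected and 13.4% of undetected genes. Among detected cancer-testis members it was in 3 of 11, MAGEA3, MAGEA6 and PRAME, and among the undetected in 0 of 12. MAGED1, MAGED2 and MAGEF1 had it as well. A match describes letters in a window and is no evidence of binding. The ETS factor genes ETS1 and ETS2 had 17.6 TPM ± 1.77 and 19.3 TPM ± 0.824.

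**Figure D5:**
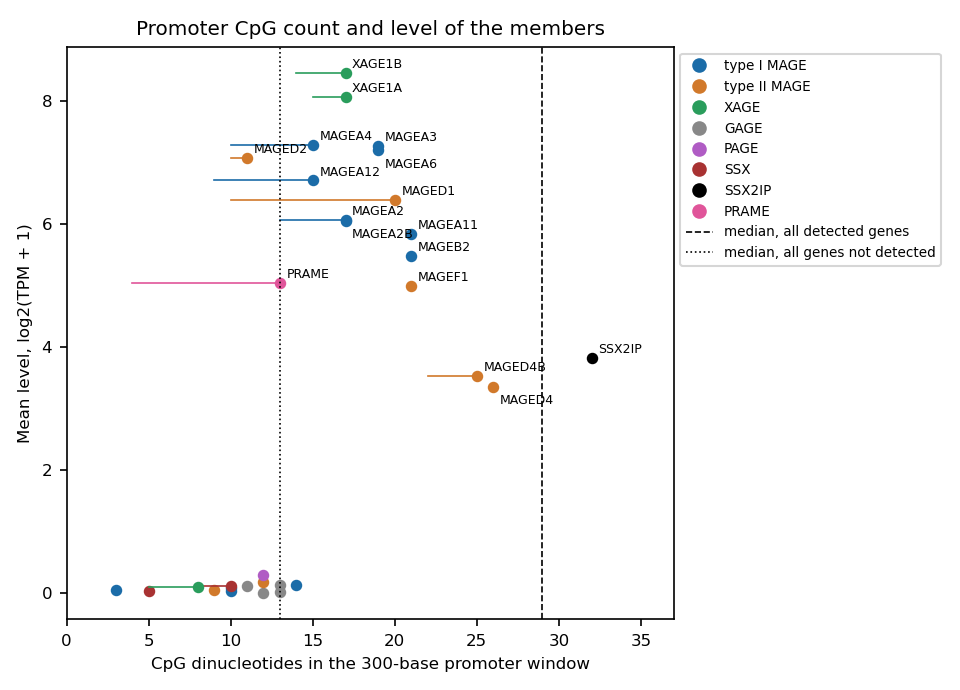
CpG count in the 300-base promoter window against mean level on the log2(TPM + 1) scale for the 31 members with a window; points use the start with the most CpG, lines reach to the start with the fewest, and the vertical lines mark medians of 29 and 13 over all detected and undetected genes. Points of detected cancer-testis genes lie at 13 to 21 CpG and those of undetected ones at 3 to 14, and the lines of detected ones reach down to 4.

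The ligases and complexes through which MAGE proteins work were mostly present. Of 18 listed genes 16 were detected, or 88.9% against 66.5% of all genes, and the list's median level was 30.7 TPM ± 2.97. TRIM28, the partner of MAGEA3, MAGEA6 and MAGEC2, had 151.8 TPM ± 5.58, close to the level of MAGEA3. NSMCE1, the partner of MAGEF1, had 152.5 TPM ± 9.78 and its substrate MMS19 had 91.9 TPM. TRIM27, which works with MAGEL2, had 68.1 TPM ± 1.79 while MAGEL2 itself was near 0. The highest gene of the list was NSMCE2, a SUMO ligase of the SMC5/6 complex, at 1327 TPM ± 11.4. PRKAA1, the AMPK subunit described as a substrate of MAGEA3 and MAGEA6 with TRIM28, had 32.05 TPM ± 3.54. LNX1 and TRIM31, partners described for other MAGE proteins, had 0.0300 and 0.0133 TPM. All 6 listed PRAME partners were detected, from RARA at 10.7 TPM ± 0.811 to ELOB at 237.2 TPM ± 7.54, with CUL2 at 25.8 TPM ± 2.38. Protein interaction was not measured.

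Genes of the DNA methylation machinery were expressed alongside the members. Of 16 listed genes 15 were detected, or 93.8% against 66.5% of all genes, and their list had a median level of 16.4 TPM ± 1.90, near the 18.2 TPM of all detected genes. The maintenance methyltransferase gene DNMT1 had 77.5 TPM ± 3.49 and its cofactor UHRF1 11.03 TPM ± 0.188. Of the genes for enzymes that methylate new sites, DNMT3A had 13, 11.7 and 11.3 TPM and DNMT3B had 12.3 TPM ± 1.10. DNMT3L, a germ cell cofactor, was listed at 0. The demethylase genes TET1, TET2 and TET3 had 2.49, 6.13 and 9.16 TPM. Of 22 repressors and activators described for germline genes 21 were detected, or 95.5% against the same 66.5%. The highest were CBX3 at 362.9 TPM ± 12.2, MAX at 119.5 TPM ± 2.93 and HDAC2 at 80.1 TPM ± 7.36. The germline gene repressor E2F6 had 21.3 TPM ± 1.54. Its partners MGA and PCGF6, at 8.02 and 14.2 TPM, were the lowest detected genes of that list. CTCFL, also called BORIS, a testis relative of CTCF described as an activator of cancer-testis genes, had 0.180 TPM ± 0.0700, whereas CTCF had 41.8 TPM ± 2.87.

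Measured markers of germ cells and trophoblast, where cancer-testis genes are normally active, were near 0. Of 10 named germ cell markers 4 had a value and 0 were detected, against 66.5% of all genes. Their summed level was 0 to 0.180 TPM per library, with MAEL and PRM2 listed at 0. Of 7 named trophoblast markers 4 had a value and 0 were detected, with a summed level of 0.400 to 0.510 TPM. Melanocyte markers were looked at as well, and 3 of 5 measured ones were detected. These were DCT at 12.2 TPM ± 0.791, the transcription factor gene MITF at 11.7 TPM ± 0.878 and PMEL at 1.45 TPM ± 0.265. MLANA and TYRP1 had 0.140 and 0.130 TPM.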

How the data were processed

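The authors deposited 1 table of 17170 genes. Per the file headers, each library has TPM, FPKM and estimated counts, all made by the authors. The submitters' processing notes name HISAT2, StringTie and DESeq2 with the GRCh38 build, without versions or roles. No source used here states the annotation or how reads matching several genes were treated. How such reads were divided bears directly on copies within these families. Columns were matched to samples by name. The 12 columns of 3 further libraries carry si in their names, match no sample label and were used in no step. The test planned between knockout and control was therefore not run. Normalized counts and averages were not used either.

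Means, SDs and subfamily sums were computed from TPM, with log2(TPM + 1) in figures. Positions and promoters came from RefSeq (GRCh38.p14). Coding identity was computed on GENCODE release 29 transcripts by global alignment in place of the planned protein alignment. The members and gene lists were chosen with earlier results of these data known. Named genes were all detected members, the leading member of each subfamily and fixed regulators. The top genes of each list were planned as well, but not all are given. GADD45A of the DNA methylation list, at 144.3 TPM, and EZH2 of the PRAME partners, at 88.1 TPM, were left out. The TET genes and E2F6 were named outside this plan. Others, such as GABRE and the neighbouring genes, were named after their values were seen. Detection was tested on simulated counts drawn for each gene alone, and sequence sharing on random sequences. Neither included reads divided between copies, so that division was not tested. Library totals of 20941185, 22309228 and 22477571 reads make counting error 1.58% for CTAG2 and 7.90% for MAGEH1, and intervals and limits cover counting error only. Python 3.11.15, pandas 2.3.3, numpy 2.4.6, Biopython 1.88 and matplotlib 3.10.9 were used.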

Additional observations from a re-analysis of the deposited data

How the results depend on the processing

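No paired analysis was possible because the knockout samples matched none of the columns by name, so the replicate block was not run. The 23 detected members were also the count with FPKM, with at least 10 estimated reads, with 5 TPM as the minimum, with rescaled TPM and without each library in turn, and 24 were detected with 0.1 TPM as the minimum. The share of the summed level, 0.267%, was 0.184% of estimated reads and 0.388% of TPM rescaled after leaving out ribosomal protein and MTRNR2L genes. The median log2 level of detected members, 6.22, was 5.44 with FPKM, 10.6 with estimated reads, 6.75 with rescaled TPM and 6.09 with a minimum of 0.1 TPM. Other cancer-testis genes detected, 17 at 1 TPM, were 11 at 5 TPM and 28 at 0.1 TPM. With 10 reads or 0.1 TPM as the minimum, trophoblast markers detected were 1 and 1 in place of 0, and neuroendocrine markers 3 and 5 in place of 1. Relative to the median gene, MAGED4 and MAGEH1 turned from above to below with estimated reads, to -0.076 and -0.92 on the log2 scale; reads are not divided by length. With the start of fewest CpG, chosen after seeing the data, the CpG median of detected cancer-testis members was 15 in place of 17, and their range of 4 to 21 then covered that of the undetected ones but for MAGEB3 and its 3 CpG. Stretches of 50 or 150 bases, also added later, moved shared percentages, for MAGEA3 from 56.5 to 27.1. Copies cannot be told apart where whole transcripts match. The knockout comparison and its alternatives were not run.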

Other observations

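Beyond the families described above, 44 other genes listed as cancer-testis genes had a value, and 17 of them were detected (38.6%), against 66.5% of all genes in the table. Their median was 0.412 TPM ± 0.0898. After CSAG1, the highest was RHOXF2B, an X-linked homeobox gene, at 138.8 TPM ± 6.27, and its copy RHOXF2 had 4.8 TPM ± 0.303. RHOXF2B and RHOXF2 shared 80.9% and 79.8% of their 100-base stretches, so the split is uncertain. CT83, an X-linked antigen gene of lung and stomach tumours, had 25.2 TPM ± 3.44, and PLAC1, a placental gene, had 5.55 TPM ± 0.254. Of 15 X-linked genes in the list 6 were detected, against 62.4% of X-linked genes other than members. Of the other 29 genes in the list 11 were detected.

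Several detected genes in the list act in dividing cells of any tissue, among them the mitotic kinase genes PBK at 31.8 TPM ± 1.23 and TTK at 23.3 TPM ± 3.06 and the centromere factor gene OIP5 at 15.2 TPM ± 1.24. Genes with roles in meiosis or sperm, picked here after their values were seen, did not share one level. HORMAD1, TDRD1, BRDT and LDHC had 0.0167, 0.0533, 0.0333 and 0.0133 TPM. TSSK6, CABYR, TEX15 and SPA17 were detected, at 5.82 TPM ± 0.788, 5.45 TPM ± 0.775, 3.64 TPM ± 0.882 and 3.27 TPM ± 0.896. SPAG9, also in the list but not counted with these genes, had 28.2 TPM ± 1.72.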
